A study of Mus musculus with 5 samples.

Results

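Collagen and laminin genes were followed through the Ago-bound RNA of the developing mouse liver. A gene was included when its symbol consisted of Col, a number, the letter a and a further number, or of Lama, Lamb or Lamc and a number. RefSeq annotates 55 such genes in the mouse, 44 collagens and 11 laminins. Of these, 53 had at least 1 listed Ago cluster, out of 22714 genes listed in all tables together, and 28 were listed at every stage. Col10a1, a short-chain collagen of growth plate cartilage, and Col6a4 were listed at no stage.

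Ago HITS-CLIP fixes RNA to Argonaute proteins with ultraviolet light. The proteins are precipitated and the RNA fragments on them sequenced, which gives both miRNAs and pieces of their targets. The livers came from C57BL/6 mice (C57BL/6J in the methods), with no allele or treatment named in the labels, before birth at e12.5, e15.5 and e18.5 (embryonic day), at postnatal day 7 (P7) and as adults of 6 to 8 weeks, and all were irradiated 3 times at 254 nm (0.2 J/cm2). Whole liver was used, so every value is a mixture of hepatocytes, blood-forming cells, stellate cells, endothelium and other cells. Ago2 antibodies were used at all stages and an Ago1 antibody was added for P7 and adult liver, so the added antibody and age after birth cannot be told apart. The labels give 1 sample per stage, the methods describe 2 biological replicates of the Ago2 precipitation, and 1 table per stage was analysed. No spread between animals could be computed, no p-value is given, and each difference is a difference between tables. Intervals are 95% Wilson intervals of a share and cover counting error only, since PCR reads are not independent molecules.

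Each table lists stretches of overlapping reads (clusters) that hold a match to a miRNA seed, with the height of the cluster in reads, and has none under 5 reads. In order of age, from the youngest embryo to the adult, which all series of 5 values here follow, the tables hold 208193, 81121, 76948, 124781 and 81194 clusters. Read values were divided by the summed reads of all clusters of the same table, which were 44867326, 16519549, 13008703, 16499162 and 24885228, and are given as reads per 1000000 of these (rpm). A cluster in a coding sequence (CDS), a 3′UTR or a 5′UTR is called an mRNA cluster. The embryonic tables each hold 2 lists whose difference the labels do not explain. The study's supplement names a further e18.5 library (rep2), and whether either e18.5 list holds it is not given in the sources used here. Their 2 lists held 100 and 274 member positions at e12.5 with 22 shared, then 30 and 96 with 9 shared, and 113 and 107 with 22 shared at e18.5.

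Collagens are trimers of long chains in which glycine occupies the first position of each triplet of residues. Fibrillar collagens such as types I, III and V form the fibres of connective tissue, type IV collagen forms the mesh of basement membranes, and laminins, each made of an alpha, a beta and a gamma chain, form the other mesh of basement membranes. In liver, stellate cells are the best known source of fibrillar collagens, and sinusoidal endothelium lies on an unusually sparse matrix. The miR-29 family is known as a repressor of collagen mRNAs, and let-7 is known as a family that accumulates as tissues mature.

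The mature sequences of both families are shown because their seeds define the sites counted here. They are taken from RefSeq (GRCm38.p6) and matched the sequences in the deposited tables. Capitals mark the seed, bases 2 to 8, which the 3 miR-29 miRNAs share, as do let-7a and let-7c.
miR-29a-3p: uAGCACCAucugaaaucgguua
miR-29b-3p: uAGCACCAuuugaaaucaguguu
miR-29c-3p: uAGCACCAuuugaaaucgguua
let-7a-5p: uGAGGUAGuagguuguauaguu
let-7c-5p: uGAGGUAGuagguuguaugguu

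The next segments carry the collagen sites that the results on these families turn on, each read 5′ to 3′ on the gene's strand of GRCm38 (mm10), with the bases that pair with the seed, and the A opposite miRNA base 1 where there is one, in capitals. The first is the miR-29 site with the most reads among all members, an 8mer in exon 52 and the 3′UTR of Col4a1 (chr8:11199761-11199768, minus strand). The next are 7mer-m8 sites in the coding sequences of Col1a2 (exon 40, chr6:4533768-4533774) and Col1a1 (exon 37, chr11:94947305-94947311). The last are 8mer let-7 sites in the 3′UTRs of Col3a1 (chr1:45349150-45349157) and Col1a2 (chr6:4541077-4541084).
Col4a1 miR-29: cctctgccaccgtcacaacaTGGTGCTAc
Col1a2 miR-29: gctggcccccctggccccccTGGTGCTg
Col1a1 miR-29: cctggacccaaaggtcctcgTGGTGCTg
Col3a1 let-7: tgtcctcctccctatgttaaCTACCTCAa
Col1a2 let-7: caaacttccaaaggtttgaaCTACCTCAa

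Collagen and laminin transcripts took their largest share of Ago clusters at P7. The e12.5 table gave them 203 of its 95118 mRNA clusters (0.213%, interval 0.186 to 0.245%) and the e15.5 table gave 77 of 45083 (0.171%, 0.137 to 0.213%). The e18.5 table gave 165 of 42466 (0.389%, 0.334 to 0.452%), the P7 table gave 413 of 80134 (0.515%, 0.468 to 0.567%) and the adult table gave 222 of 53533 (0.415%, 0.364 to 0.473%). With the lists joined, the intervals of the 2 earliest stages lay below those of e18.5, P7 and adult liver. The adult interval overlapped both of the others in this later set. In the first list alone, 16 of 6515 mRNA clusters were of members at e15.5 and 89 of 24455 at e18.5. Over all clusters, that list gave e15.5 a larger member share than e18.5, and the second list gave it a smaller one. In a whole tissue, fewer cells of a type and less RNA per cell cannot be told apart, and neither can be told apart here from less Ago on the same RNA.

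The reads also peaked at P7. mRNA clusters of the members held 215, 275, 561, 886 and 321 rpm. Scaled to 1000000 reads of mRNA clusters alone, the values were 922, 928, 1869, 4331 and 2380. P7 was highest and the earliest stages were lowest on both scales, while adult liver lay below e18.5 on the first scale and above it on the second. Col18a1 carried part of this order. Without it the sums were 179, 211, 398, 580 and 163 rpm, with adult liver lowest, and 770.03, 709.8, 1327, 2832 and 1211 scaled to mRNA clusters, with adult liver below e18.5. P7 was highest on both scales without it. The place of the earliest stages also turned with the list. The first list alone gave 345 rpm at e12.5 and 446 at e15.5, above adult liver, and the second gave 150.3 and 213, below it, while scaled to mRNA clusters both lists lay below adult liver at these stages (1259 and 1363 in the first, 707 and 745 in the second). mRNA clusters held 23.3, 29.7, 30.0, 20.5 and 13.5% of the cluster reads of all genes. With nothing added to the values, the second scale therefore raises every gene's log2 value by 0.55 from e18.5 to P7. From P7 to adult liver it raises them by a further 0.60. The median member mRNA cluster held 28, 37, 12, 17 and 23 reads, against 34, 37, 19, 15 and 23 over all mRNA clusters, so that P7 was the stage at which the member median lay above that of all genes.

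**Figure D1:**
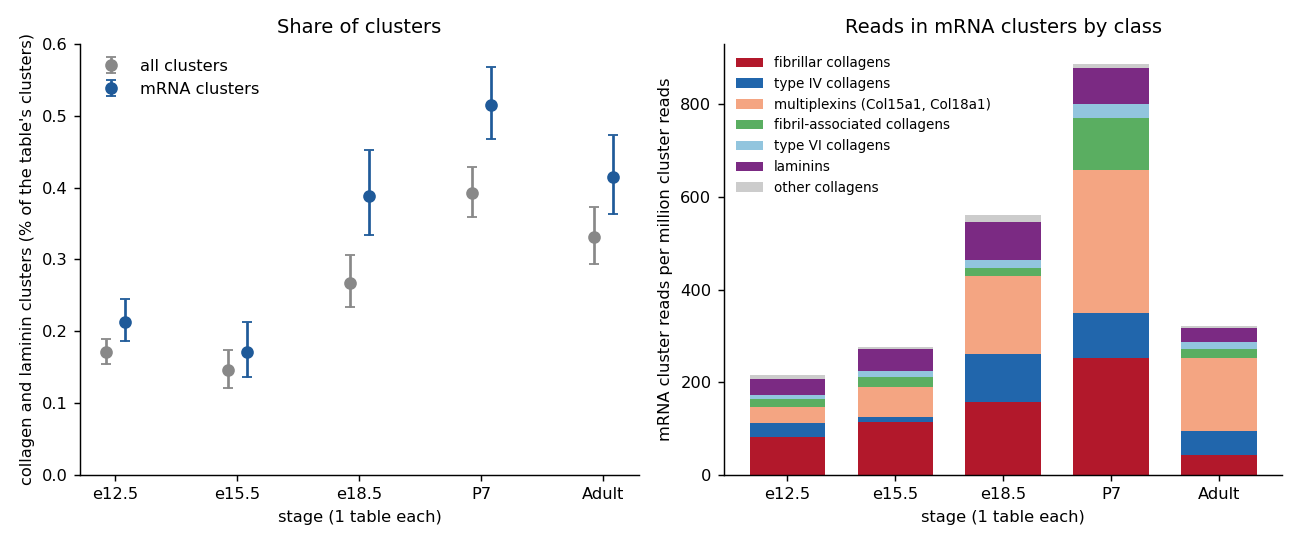
Left, collagen and laminin clusters as a percentage of all clusters and of mRNA clusters of each stage's table (points, with 95% Wilson intervals for counting error). Right, their reads in mRNA clusters in rpm, stacked by class. Both peak at P7, where mRNA clusters of the members held 0.515% of all mRNA clusters and 886 rpm.

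Among the 37 members with at least 50 mRNA cluster reads over all tables, 16 (43.2%) had their highest value at P7, against 17.7% of the 12047 genes of any kind that met this minimum. Adult liver was the highest stage for 2 members (5.41%, against 10.4% of all genes). The stages e12.5, e15.5 and e18.5 were highest for 6, 6 and 7 members (16.2, 16.2 and 18.9%, against 21.5, 24.1 and 26.3% of all genes). Scaled to mRNA cluster reads, 20 of the 37 (54.1%) peaked at P7, against 19.7% of all genes.

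Cell type markers moved with the stages too. The list of 9 stellate and other mesenchymal markers summed to 81.7, 64.3, 159, 192 and 98.3 mRNA rpm, with 9, 6, 8, 9 and 9 of the 9 listed. Des, Lrat and Hgf had no listed mRNA cluster at e15.5, nor Ngfr at e18.5. Endothelial markers, all 6 listed at every stage, summed to 19.3, 58.8, 91.9, 237 and 220, hepatocyte markers, all 5 listed at every stage, to 498, 1695, 3850, 5146 and 7106, and erythroid markers to 33574, 45868, 48461, 17393 and 828. Mesothelial markers, with 1, 3, 1, 3 and 2 of 3 listed, summed to 4.37, 5.27, 1.84, 11.8 and 2.53, cholangiocyte markers to 3.54, 0, 20.1, 17.8 and 6.87, and macrophage markers to 2.61, 4.96, 53.7, 62.4 and 103. The mesenchymal, endothelial and mesothelial sums were thus highest at P7, as the members were. Scaled to mRNA cluster reads, the endothelial sum was highest in adult liver instead (82.7, 198, 306, 1158 and 1631), while the mesenchymal and mesothelial sums stayed highest at P7. In rpm, the P7 peak of the mesenchymal sum rested on Reln, without which the sum was 51.1, 42.1, 122, 121 and 71.5. On the same scale, 4 of the 9 mesenchymal markers were highest at P7, 3 at e18.5 and 2 in adult liver. The adult peak of the hepatocyte sum in rpm rested on Alb. Without Alb this sum was 156, 523, 1327, 1340 and 888 rpm, with P7 highest and e18.5 close to it. Adult liver was the highest stage for 2 of the 5 hepatocyte markers, e18.5 for 2 and P7 for 1. The P7 peak in rpm therefore did not set the other lists apart from the hepatocyte markers. The part of these cell types in the result was not tested.

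Multiplexin collagens, which carry an endostatin domain at their end, held the largest sum of any class from e18.5 onwards. Nearly all of it was Col18a1, a collagen of basement membranes, whose cells of origin in these livers were not tested. Col18a1 had 1585, 1068, 2119, 5061 and 3917 mRNA cluster reads, which were 35.3, 64.7, 163, 307 and 157 rpm. It ranked 1050th of 11824 genes with mRNA clusters at e12.5, 26th of 12066 at P7 and 92nd of 10167 in adult liver. Col15a1, the other multiplexin, had 0, 0, 75, 39 and 7 reads, where 0 means no listed mRNA cluster, here and below.

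Fibrillar collagens held 81.5, 114, 158, 252 and 42.0 mRNA rpm, so that their sum was highest at P7 and lowest in adult liver. Col1a2, a chain of type I collagen, had 1157, 573, 492, 1081 and 155 reads, equal to 25.8, 34.7, 37.8, 65.5 and 6.23 rpm. Col1a1, the other type I chain, had 758, 165, 297, 640 and 202 reads, or 16.9, 9.99, 22.8, 38.8 and 8.12 rpm. Col3a1, the chain of type III collagen in reticular fibres, had 456, 261, 387, 1254 and 294 reads, or 10.2, 15.8, 29.7, 76.0 and 11.8 rpm. These 3 genes peaked at P7. Col5a1, a chain of the type V collagen that nucleates fibrils, was highest at e18.5, with 20.7, 23.3, 47.3, 37.3 and 13.2 rpm, but at P7 when scaled to mRNA cluster reads (157 and 182 per 1000000 at e18.5 and P7). The first list held 559 of the 615 Col5a1 reads at e18.5. With the second list alone, the e18.5 rpm of Col5a1 lay below that at P7. Col14a1, a fibril-associated collagen that coats fibrils, stood out at P7 with 13.6, 17.8, 18.4, 107 and 18.4 rpm, and 1182 of its 1760 P7 reads lay at 1 position over the stop codon and the start of the 3′UTR (chr15:55519997-55520024), which held 124, 70, 38 and 84 reads in the other tables.

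Basement membrane chains did not share 1 course. Type IV collagen held 30.4, 9.81, 102, 96.9 and 52.2 mRNA rpm. Col4a1 had 911, 100, 1056, 983 and 847 reads and Col4a2, its partner in the same trimer, had 167, 62, 262, 566 and 386, so in rpm Col4a1 was highest at e18.5 (81.2, against 59.6 at P7) and Col4a2 at P7 (34.3, against 20.1 at e18.5). Scaled to mRNA cluster reads, Col4a1 was highest at P7 as well, with 291 per 1000000 against 270 at e18.5. The first list held 990 of the 1056 Col4a1 reads at e18.5. With the second list alone, the e18.5 rpm of Col4a1 lay below that at P7. Col4a1 and Col4a2 lie head to head on chromosome 8 on opposite strands. Laminin gamma chains held 17.1, 12.2, 39.1, 40.7 and 5.34 rpm, nearly all from Lamc1, the common gamma chain, with 750, 202, 509, 637 and 98 reads. Laminin alpha chains held 5.46, 5.15, 24.3, 21.4 and 12.02 rpm. Lama1, an alpha chain of early basement membranes, had 22, 54, 219, 210 and 78 reads, and Lama4, the alpha chain of endothelial basement membranes, had 190, 0, 77, 72 and 157. Laminin beta chains, in contrast to the others, were highest at e15.5 with the lists joined, with 12.3, 30.9, 17.3, 15.9 and 11.9 rpm. At e15.5 the first list gave Lamb1 39.7 and Lamb2 41.8 mRNA rpm, and the second gave 5.29 and 7.03. At P7 these genes had 11.6 and 4.24. Type VI collagen, a beaded-filament collagen, held 8.42, 11.9, 17.7, 30.5 and 15.2 rpm, and its Col6a3 chain had 196, 166, 5, 234 and 169 reads.

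**Figure D2:**
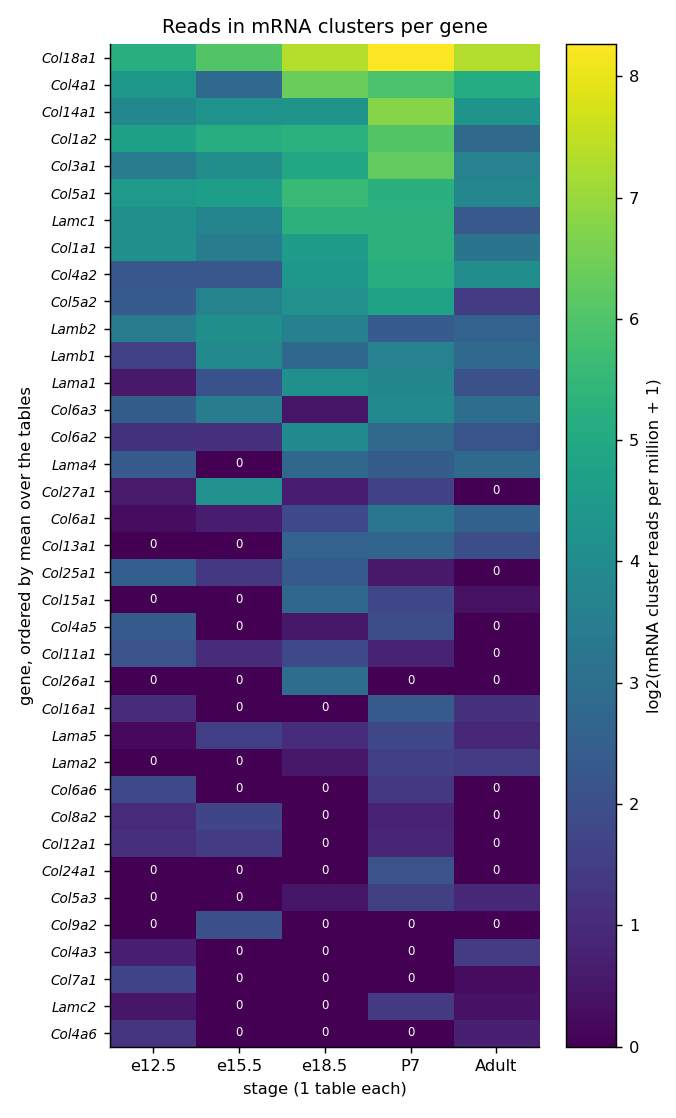
Reads in mRNA clusters of each member gene (rows, ordered by mean) at each stage (columns), as log2 of rpm plus 1. Col18a1 is the top row, with 35.3 rpm at e12.5 and 307 at P7.

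By the mean over the tables of rpm in all clusters, introns included, Col27a1 came first, with 93.1, 166, 149, 234 and 287 rpm, though Col18a1 was above it at e18.5 and P7 (52.3, 67.25, 173, 328 and 170 rpm). Most of the Col27a1 value was not of its mRNA. Mir455 lies in an intron of Col27a1 on the same strand (its mature sequences span chr4:63256867-63256924), and clusters over it held 3921, 2377, 1914, 3741 and 7120 of the 4179, 2743, 1934, 3866 and 7147 Col27a1 reads, or 93.8, 86.7, 98.97, 96.8 and 99.6%. They made up 17.3% (P7) to 44.1% (adult) of the reads of all members. All members held 442, 508, 831, 1310 and 649 rpm over all clusters, and 355, 364, 684, 1084 and 362.7 without the Mir455 positions, an alternative chosen after the data had been seen. P7 remained the highest stage. Col6a6, a long type VI chain, had 2008, 220, 811, 1402 and 293 reads, mostly at adjoining intronic positions (chr9:105819468-105819547 and chr9:105819315-105819391), and Col23a1, a transmembrane collagen, had 911 of its 925 P7 reads at 1 intronic 6mer (chr11:51449903-51449908). The levels of single genes above are therefore those of mRNA clusters, while the steps between stages are given over all clusters, introns included, with the mRNA clusters after them.

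Steps between stages were compared for genes with at least 50 reads in both tables together, and a change of at least 4-fold after adding 1 rpm was counted as called. Over all clusters, 3 of 38 members were called higher at e18.5 than at e12.5, where 11.2% of all genes were, and 0 were called lower, where 13.6% of all genes were. The member median was 0.44 on the log2 scale, and that of all 15037 genes tested was -0.27. Lama1 (8.78-fold, from 1.92 to 16.8 rpm) and Col6a2, a type VI chain (11.2-fold, from 1.31 to 14.8), were called, and Col15a1 was not listed at e12.5. The first list held 195 of the 219 Lama1 reads and 183 of the 192 Col6a2 reads at e18.5. With the second list alone, Lama1 was not called and Col6a2 had too few reads to be tested. In mRNA clusters alone, 7 of 26 were called higher (15.2% of all genes) and 0 lower (13.6%). Of the 7, Col13a1, Col15a1 and Col26a1 had no listed mRNA cluster at e12.5, and the others were Col18a1 (4.61-fold), Col4a2 (5.41-fold), Col6a2 (11.2-fold) and Lama1 (34.3-fold, from 22 reads to 219). Over all clusters, scaled to mRNA cluster reads, 8 of 38 members were called lower, beside 28.5% of all genes.

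From e18.5 to P7, 4 of 30 members were called higher (11.4% of all genes) and 1 lower (12.2%), with a member median of 0.67 and a median of -0.41 over all genes. Col14a1 (5.26-fold), Col6a3 (14.2-fold) and Col23a1 (91.2-fold, at the single intronic position above) were called higher, as was Col16a1, another fibril-associated collagen, which was not listed at e18.5. Of the Col14a1 reads, 38 of 269 at e18.5 and 1182 of 1793 at P7 lay at the position over its stop codon. Col26a1 was called lower and was not listed at P7. As a share of the members tested, the higher calls were close to the background and the lower call was below it. In mRNA clusters, 4 of 25 were called higher (12.2% of all genes) and 1 lower (11.6%). Of these, Col14a1 was 5.81-fold higher and Col6a3 36.9-fold higher, from 5 reads to 234, while Col16a1 and Col24a1 had no listed mRNA cluster at e18.5. Col23a1 had too few reads in mRNA clusters to be tested there. With the second of the e18.5 lists alone, 12 of 28 members were called higher over all clusters, beside 22.5% of all genes, and 7 of 30 were when reads were scaled to mRNA clusters, beside 18.3%.

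From P7 to adult liver, 10 of 31 members were called lower (17.5% of all genes) and 0 higher (2.62%), with a member median of -1.08 and a median of -0.74 over all genes. Of the 10, 5 were fibrillar chains (Col1a1, Col1a2, Col3a1, Col5a2 and Col24a1). Col1a2 was 10.6-fold lower in adult liver (66.1 to 6.23 rpm), Col5a2, a type V chain, was 14.9-fold lower (26.3 to 1.77), Col3a1 was 6.43-fold lower, Col1a1 was 4.78-fold lower and Col24a1 fell from 63 reads to 5. Of the other classes, Col14a1 was 5.82-fold lower, Lamc1 was 9.63-fold lower and Col23a1 was 19.7-fold lower. The Col14a1 position over the stop codon fell from 1182 reads to 84, and the Col23a1 intronic 6mer from 911 to 32. Scaled to mRNA cluster reads, 8 of the 10 kept their call, beside 16.6% of all genes called lower, and Col1a1 (3.14-fold lower) and Col14a1 (3.83-fold lower) lost it. Col18a1, Col4a1 and Col4a2 were not among the called genes. In mRNA clusters, 7 of 23 were called lower (16.8% of all genes) and 0 higher (2.48%). These were the 5 fibrillar chains, Col14a1 and Lamc1, of which Col24a1 had no listed mRNA cluster in adult liver.

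Between e12.5 and adult liver, 6 of 38 members were called lower, a smaller share than the 29.2% of all genes, and 1 was called higher (7.86%). The member median was -0.46 and that of all genes -1.22, and in mRNA clusters the member median was 0.13, with 14 members above 0 and 13 below, against -1.01 over all genes. Lamc1 (5.86-fold lower) and Col7a1, the collagen of anchoring fibrils (22.9-fold lower, from 206 reads to 5), were among the lower genes, with Col4a5, which was not listed in adult liver. In mRNA clusters neither Lamc1 (-1.84 on the log2 scale) nor Col7a1 (-1.41, from 98 reads to 5) was called, and over all clusters scaled to mRNA cluster reads Lamc1 (3.39-fold lower) also lost its call. On that scale 6 members were called higher, beside 14.6% of all genes, which were Col6a1, Col13a1, Col18a1, Col4a2, Col5a3 and Col27a1, and 8 were called lower, beside 34.5%. Col6a1 was the gene called higher, from 10 reads at e12.5 to 124. In mRNA clusters 2 of 27 were called higher (9.98%), Col6a1 and Col18a1 (4.46-fold), and 3 lower (27.7%), none of which had a listed mRNA cluster in adult liver. With a pseudocount of 0.1 rpm over all clusters, 13 were called lower, beside 45.1% of all genes, and 3 higher, beside 11.1%.

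Spearman's rho over the 5 tables, as a description, was 1 between the mRNA rpm of Col18a1 and Col4a2, 0.9 for Col14a1, Col3a1 and Col6a1, and 0.8 for Col4a1, Col6a2 and Lama1. Of the other members compared, rho was 0.6 or 0.7 for Col1a1, Col1a2, Col5a1, Col5a2 and Lama5, 0.5 for Lamc1, 0.3 for Col6a3 and Lamb1 and -0.5 for Lamb2. By reads of all clusters, where Col27a1 leads through Mir455, the members most like it were Col5a3 (0.9), Col6a1 (0.8), Col6a3 (0.6), and Col13a1 and Col18a1 (0.5). The points share their tables and the totals they were scaled to.

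The genes that make, process and bind collagens gave different courses in rpm, and their values were not scaled to mRNA cluster reads. Of 17 genes for collagen modification and folding, 15, 10, 12, 15 and 13 had a listed mRNA cluster, with sums of 157, 207, 302, 245 and 242 mRNA rpm. Between P7 and adult liver, 0 of the 13 tested were called on either all clusters or mRNA clusters, beside 17.5% and 16.8% of all genes called lower. P4hb, the beta subunit of prolyl hydroxylase, had 53.2, 96.7, 83.6, 60.2 and 48.6. Mia3, which loads procollagen into transport vesicles, had 20.7, 52.4, 59.7, 86.4 and 120. Ppib, a prolyl isomerase, had 29.7, 32.02, 69.3, 27.8 and 32.6. Of 9 tested genes for propeptide cleavage and crosslinking, 3 were called lower in adult liver than at P7 over all clusters (Adamts2, Loxl1 and Loxl2, beside 17.5% of all genes), and 2 of 7 in mRNA clusters (Loxl1 and Loxl2, beside 16.8%). Bmp1, a procollagen C-proteinase, kept 31.2 rpm in adult liver against 33.3 at P7, while Loxl2, a lysyl oxidase, had 4.22 against 20.1, and Pcolce, which enhances Bmp1, had 3.25 against 4.85.

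Of 12 matrix partners, 4 were called lower in adult liver than at P7 over all clusters (Eln, Fbn1, Lum and Nid2), beside the same 17.5% of all genes, with a log2 median of -1.76 against -0.74 over all genes. In mRNA clusters 3 of 12 were called (without Fbn1). Fn1, fibronectin, which hepatocytes also make, had 70.9, 104, 735, 506 and 298 rpm, highest at e18.5 on this scale. Sparc, a collagen-binding glycoprotein, had 16.8, 13.0, 31.1, 100 and 26.6, a P7 peak like that of Col3a1. Nid1, which links laminin to type IV collagen, had 13.8, 14.5, 26.1, 55.1 and 16.8. Of 10 receptors tested, 2 were called lower in adult liver (Bcam and Itga11), a share near the 17.5% of all genes, and 1 of 9 (Bcam) in mRNA clusters. Itgb1, the shared beta chain of collagen and laminin integrins, had 109, 122, 88.3, 64.0 and 28.0. Dag1, dystroglycan, had 39.1, 39.1, 34.1, 30.8 and 36.5, and Bcam, a laminin receptor, had 4.01, 19.9, 10.5, 18.55 and 2.25. Of 5 proteases and inhibitors tested, Mmp2 and Mmp9 were called lower in adult liver on both sets of clusters, beside 17.5% and 16.8% of all genes. Mmp14, a membrane collagenase, had 6.17, 13.0, 23.8, 74.3 and 42.5. Mmp9, a gelatinase, had 36.0 at e18.5, 11.0 at P7 and no listed mRNA cluster in adult liver, and Timp2, an inhibitor, had 1.14, 14.6, 0.538, 2.85 and 4.02.

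Ago clusters on the members lay in coding sequence more often than those of all genes at e12.5, e18.5 and P7. Of member mRNA clusters, 70.4, 71.4, 74.5, 80.4 and 74.8% had an entry in the CDS, with intervals of 63.8 to 76.3%, 60.5 to 80.3%, 67.4 to 80.6%, 76.3 to 83.9% and 68.7 to 80.0%. Over all genes the shares were 61.3, 62.8, 63.4, 65.5 and 72.9%. The member intervals lay above the overall share at e12.5, e18.5 and P7 and contained it at e15.5 and in adult liver. Clusters with an entry in the 3′UTR made up 27.1, 27.3, 21.8, 18.4 and 20.7% of member mRNA clusters, against 41.5, 40.4, 38.0, 36.9 and 29.7% over all genes, and every member interval lay below the overall share. Introns held 47.5, 41.5, 29.6, 25.6 and 28.3% of all member clusters, against 27.4, 19.1, 19.3, 21.8 and 22.7%. Collagens and laminins have long coding sequences, and coding length was not adjusted for.

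**Figure D3:**
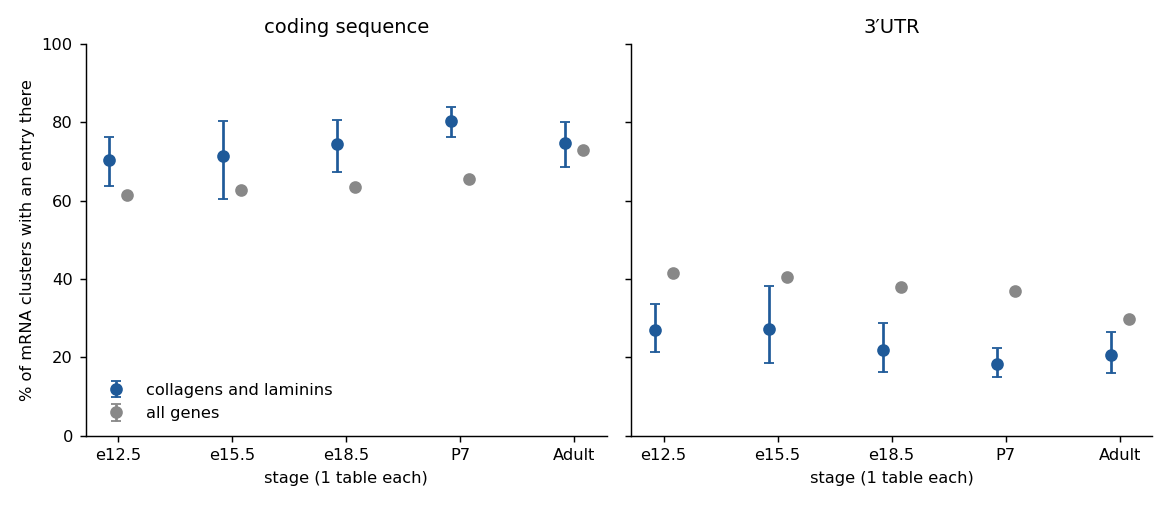
Percentage of mRNA clusters with an entry in the CDS (left) and in the 3′UTR (right) for collagen and laminin genes and for all genes, by stage, with 95% Wilson intervals. The members had 80.4% in the CDS and 18.4% in the 3′UTR at P7, against 65.5% and 36.9% over all genes.

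Sites of miR-29 were listed in 6 of 203 member mRNA clusters at e12.5 (2.96%, interval 1.36 to 6.30%), in 3 of 77 (3.896%, 1.33 to 10.8%) and 7 of 165 (4.24%, 2.07 to 8.50%) at the later embryonic stages, in 29 of 413 at P7 (7.02%, 4.93 to 9.90%) and in 18 of 222 in the adult (8.11%, 5.19 to 12.45%). Over all genes the shares were 1.39, 1.28, 1.35, 1.35 and 2.63%. The member intervals lay above the overall share from e15.5 onwards, and the member intervals of all 5 stages overlapped each other. With sites of at least 7 matched bases alone, the P7 share was 20 of 413 (4.84%, 3.16 to 7.36%), against 0.658% over all genes. The first of the embryonic lists held 0 of these clusters at e12.5 and e15.5. At P7 the share was similar in both parts of the transcript, with 22 of 332 CDS clusters (6.63%, against 1.33% over all genes) and 5 of 76 3′UTR clusters (6.58%, against 1.28%). In adult liver it was 11 of 166 CDS clusters (6.63%, against 2.61%) and 5 of 46 3′UTR clusters (10.9%, against 2.49%).

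The share of Ago-bound miRNA reads that belonged to miR-29 was 0.0858, 0.108, 0.104, 0.272 and 2.63%. These shares rest on an unexplained whole number in the name of each entry, treated here as miRNA reads. The miR-29 share of miRNA reads was thus far higher in adult liver than at P7, while its site shares on the members at these stages, 8.11 and 7.02%, had overlapping intervals.

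Sites of let-7 were fewer. They were listed in 2, 1, 3, 9 and 5 member mRNA clusters, or 0.985, 1.30, 1.82, 2.18 and 2.25%, against 0.861, 1.005, 1.13, 1.66 and 2.21% over all genes. At P7 the interval was 1.15 to 4.09% and held the overall share. In the 3′UTR at P7, let-7 sites lay in 6 of 76 member clusters (7.89%, interval 3.67 to 16.2%), against 1.72% over all genes. At the other stages they lay in 1 of 55, 1 of 21, 2 of 36 and, in adult liver, 1 of 46 member 3′UTR clusters (1.82, 4.76, 5.56 and 2.17%), against 0.791, 0.944, 1.003 and 2.35% over all genes, so the adult share was close to that of all genes. let-7 made up 2.46, 3.62, 5.74, 15.3 and 22.4% of miRNA reads.

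**Figure D4:**
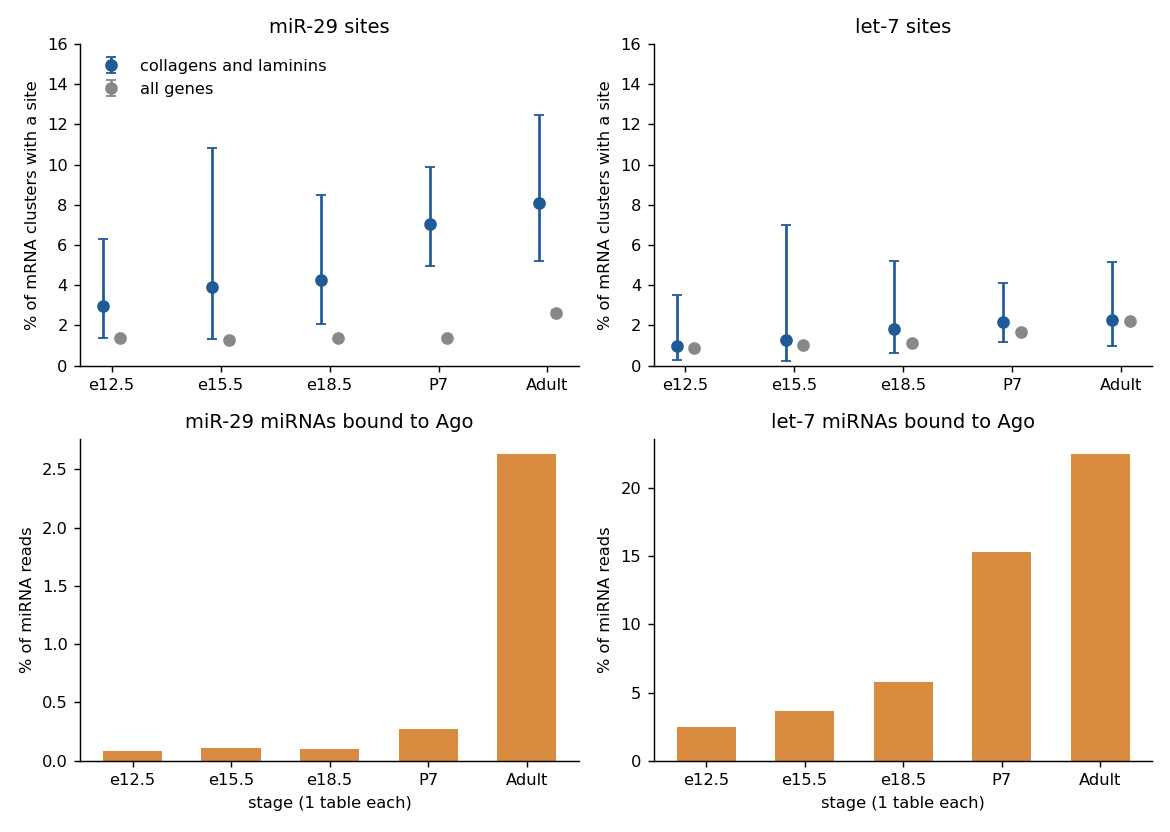
Top, percentage of mRNA clusters with a miR-29 site (left) or a let-7 site (right) in collagen and laminin genes and in all genes, with 95% Wilson intervals. Bottom, each family's percentage of the miRNA reads of the same tables; miR-29 sites were in 7.02% of member mRNA clusters at P7 while miR-29 was 0.272% of miRNA reads.

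Altogether, 53 different miR-29 sites were listed in the members, of which 33 were in coding sequence, 13 in 3′UTRs, 3 in 5′UTRs and 4 outside the exons of coding transcripts. Of these, 41 were listed at 1 stage and 12 at more. The coding sites fell mainly in the triple-helix genes of fibrils, with 6 clusters in Col1a1 and 6 in Col3a1 at P7 and 3 and 4 in adult liver. The Col1a2 and Col1a1 segments printed above had 54 and 52 reads at e18.5 and 76 and 26 at P7, and neither was listed at other stages. The Col4a1 3′UTR segment had 159 reads in adult liver and was listed there only. Col5a2 had the miR-29 site seen at the most stages, a 7mer-m8 in its 5′UTR (chr1:45503040-45503046, minus strand) with 12, 13 and 31 reads at the last 3 stages. No member had a miR-29 site in a 3′UTR cluster at 3 or more stages.

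The hexamer GGTGCT, which pairs with bases 2 to 7 of miR-29, is also a run of a glycine and an alanine codon. It was searched on the transcript strand of 1 coding transcript per gene. Collagen coding sequences held 205 in 200019 bases, or 1.02 per kb, laminins 0.399 per kb and all 21760 protein-coding genes 0.390 per kb. In collagens 84.9% of them stood in the frame that reads glycine and alanine, against 30.2% over all genes, and 81.8% of collagen genes held at least 1, against 39.9% of all genes. Of the 33 coding miR-29 sites listed, 28 stood in that frame, a share close to the 84.9% of all such hexamers in collagens. Col1a1 held 25 such hexamers and Col1a2 held 22. In 3′UTRs, where no frame applies, collagens held 1.22 per kb, laminins 0.150 and all genes 0.288. The let-7 hexamer TACCTC, which can overlap GGTGCT by 1 base, was at 0.145 per kb in collagen coding sequence (0.235 over all genes) and 0.402 per kb in collagen 3′UTRs (0.215 over all genes). The part of this base composition in the miR-29 share of collagen clusters was not tested.

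The 3′UTR search took 1 transcript per gene, and those of Col18a1, Col6a3 and Col11a2 hold no 3′UTR, so these 3 genes were not searched. Of 52 matches of at least 7 bases to miR-29 in the other member 3′UTRs, spread over 26 genes, 11 in 9 genes were listed at any stage. Of 19 such let-7 matches in 17 genes, 5 in 5 genes were listed. The Col1a2 let-7 segment printed above was the member 3′UTR let-7 site seen at the most stages, with 40 reads at e12.5, 5 at e18.5 and 56 at P7. The Col3a1 let-7 segment had 33 reads at e15.5 and 102 at P7. Col4a2 had a 7mer-A1 let-7 site (chr8:11448551-11448557) with 39 reads at P7 and 61 in adult liver. The conservation score deposited for these 3 let-7 sites was 1, the top of its scale. The median over all 17 let-7 sites of the members was 0.853, and that over all 53 miR-29 sites was 0.962.

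**Figure D5:**
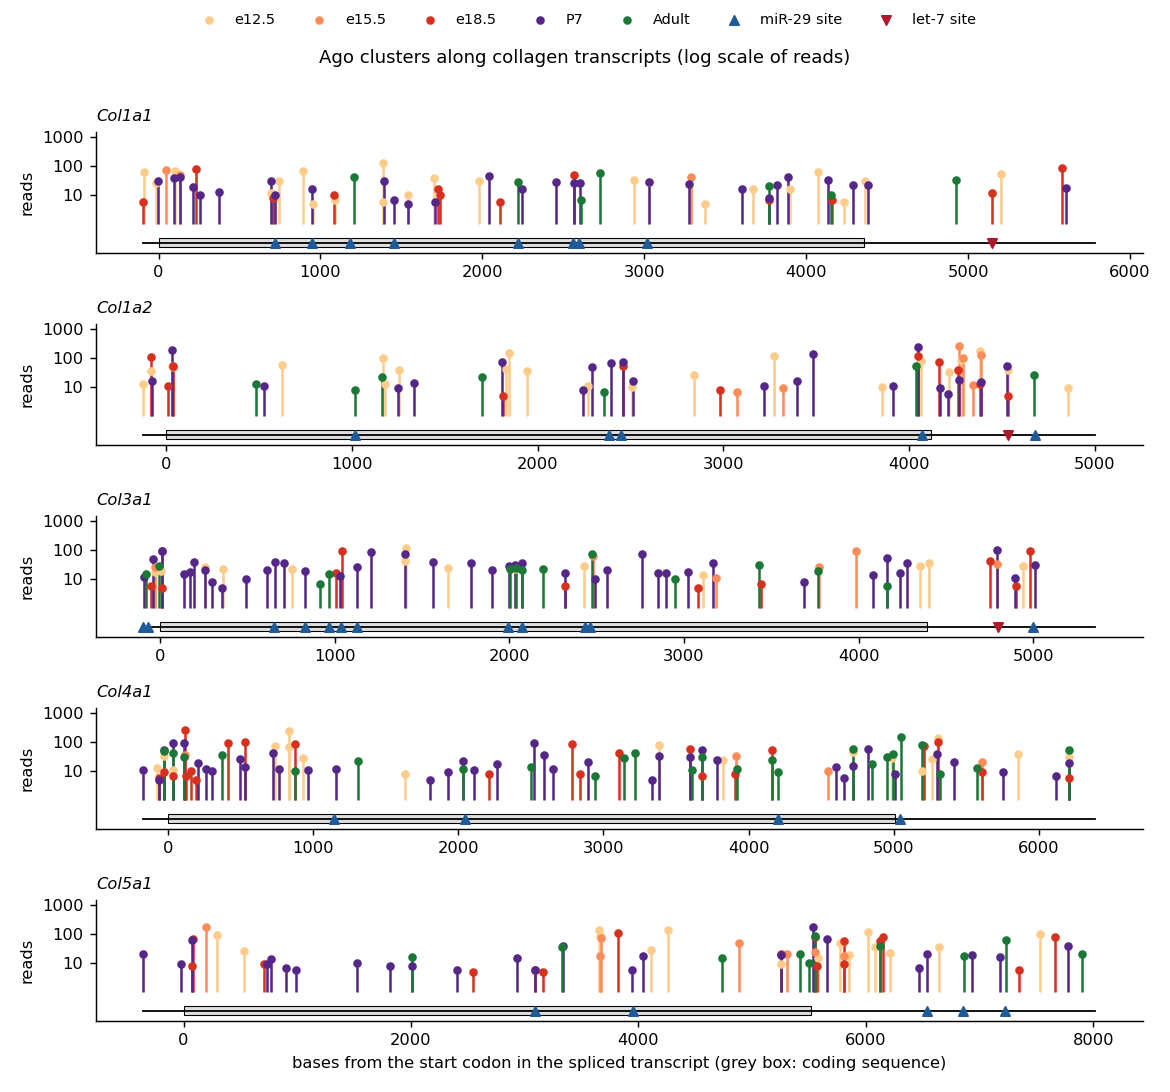
Ago clusters along the spliced transcripts of single collagen genes, with the distance from the start codon in bases (grey box, coding sequence) against cluster reads on a log scale, coloured by stage; markers at the base show listed miR-29 and let-7 sites. Clusters run along the coding sequences. Of all members, 28 of 33 coding miR-29 sites lie in the glycine-alanine frame, beside 84.9% of the GGTGCT hexamers in collagen coding sequences, listed or not.

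Among 3′UTR sites of the 100 miRNAs with most reads, the member sites with most reads at 3 or more stages were mainly in Col18a1, and paired with other miRNAs. Coding positions, some with more reads, were not ranked with them. Their segments are shown because they lie under the leading Col18a1 clusters, with the sequences of 2 miRNAs that pair with them. Capitals mark the seed in the miRNAs and the paired bases in the segments, which lie in exon 42 on the minus strand of chromosome 10 at chr10:77052634-77052640 (miR-122-5p, 7mer-m8), chr10:77052985-77052991 (miR-26, 7mer-A1) and chr10:77052595-77052601 (miR-27, 7mer-m8).
miR-26a-5p: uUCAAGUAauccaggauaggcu
miR-27b-3p: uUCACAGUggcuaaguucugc
Col18a1 miR-122: tgccccactctcctgcagccACACTCCc
Col18a1 miR-26: cttcctgcccttcctctcccACTTGAAc
Col18a1 miR-27: gttcccaagctcagtaactcACTGTGAc

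The miR-122-5p segment, which pairs with the miRNA most typical of hepatocytes, had 61, 245, 153, 134 and 580 reads. It was listed at every stage and was highest in adult liver. The miR-26 segment had 115, 226 and 205 reads at the last 3 stages and was not listed earlier. The miR-27 segment had 97, 9, 179 and 231 reads from e15.5 to adult, and a 6mer of miR-27 nearer the end of the transcript (chr10:77052239-77052244) had 8, 76, 29, 425 and 267. Conservation scores of all these Col18a1 sites were at most 0.001. A site of miR-185-5p lies next to the miR-122-5p segment with 44, 229, 137, 134 and 612 reads, and miR-673-5p shares its hexamer with miR-27, so reads cannot be given to 1 miRNA. The 2 most conserved of the leading 3′UTR sites had most of their reads before birth. A 6mer of the miR-130 family in Col4a1 (chr8:11199500-11199505, score 0.997) had 143, 0, 104, 38 and 8 reads, and a 6mer of the miR-15/16 family in Lamc1 (chr1:153219165-153219170, score 0.987) had 58, 0, 136, 10 and 0, where 0 means that the site was not listed. In Col1a2, a 3′UTR position with sites of miR-25 and miR-92a (chr6:4540788-4540859) had 90, 360, 39 and 18 reads from e12.5 to P7 and was not listed in adult liver.

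Most positions were listed at few stages. Of 762 mRNA positions of the members, 571 were listed at 1 stage, 127 at 2, 38 at 3, 18 at 4 and 8 at all 5. A large single position was in the coding sequence of Col18a1 (chr10:77080678-77080741), with 56, 176, 1218 and 231 reads from e15.5 to adult and with miR-122-5p and miR-125 sites at 2 or more of them. It held 1218 of the 5061 Col18a1 reads at P7, the largest member mRNA cluster of any table.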

How the data were processed

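1 table of miRNA-target interactions per stage was used as deposited. Per the labels, the processing notes name Bowtie with mm9 and mm10, and the methods name mm10. All 6483 listed member sites carried the match to miRNA bases 2 to 7 in GRCm38.p6. The read value deposited by the authors is a signal, the highest whole number of reads in a cluster, not scaled to depth and named differently at e12.5. The deposited conservation value is a fraction from 0 to 1. The deposited folding energy score was not used.

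Entries were grouped into clusters by list and peak, overlapping clusters of the 2 embryonic lists were joined for counts, and their reads were added. Genes entered through the listed symbols. Changes are on log2 of rpm plus 1 and were called at 4-fold. With 1 table per stage no test was made. The method was tested on simulated data. The members, classes and gene lists were chosen with earlier results of these data known. Genes were named by fixed rules of mean reads, site recurrence and size of change, and other genes were chosen after their values were seen. Alternatives varied the list, read minimum, site length, scaling, pseudocount, gene match and region. Python 3.11.15, pandas 2.3.3, numpy 2.4.6 and matplotlib 3.10.9 were used.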

Additional observations from a re-analysis of the deposited data

How the results depend on the processing

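No paired analysis was possible because each stage has 1 sample, and for the same reason no sample could be left out. P7 had the highest member rpm in every setting run. Values that moved are given from e12.5 to adult unless a stage is named, all in member rpm over all clusters first. They were 435, 798, 1279 and 637 at e12.5, e18.5, P7 and adult with only clusters of at least 10 reads, 386, 375, 673, 1591 and 432 with only sites of at least 7 matched bases, 354, 363.4, 684, 1083 and 362.7 for clusters listed for members alone, 349, 342, 658, 982 and 362 without the gene with most reads at that stage (Col18a1 at e18.5 and P7, otherwise Col27a1, so these values are not 1 series), 389.6, 441, 658, 982 and 478 without Col18a1 throughout, 349, 342, 682, 1076 and 362 without Col27a1 throughout (both chosen after seeing the data), 215, 275, 561, 886 and 321 with exonic clusters, 355, 364, 684, 1084 and 362.7 without Mir455, and 1897, 1712, 2768, 6403 and 4818 when scaled to mRNA cluster reads. With symbols matched by their beginning they were 460, 532, 851 and 1332 at the first 4 stages. The first list alone gave 642, 779 and 915 in the embryonic tables and the second 343, 409 and 510. The first list also gave a member share of clusters of 0.231% at e15.5 and 0.221% at e18.5, the second 0.332% at e18.5. At e15.5 the first list gave 0.281% of CDS clusters and 36.7% of member clusters in the CDS. It held 0 miR-29 and 0 let-7 clusters at e12.5 and e15.5. In 3′UTR clusters alone, miR-29 shares were 9.52% at e15.5, 0% at e18.5 and 10.9% in adult liver, and let-7 shares were 4.76, 5.56 and 7.89% at e15.5, e18.5 and P7. With sites of at least 7 bases the P7 miR-29 share of all member clusters was 4.09%, against 6.13% with all sites. Counts of called members moved as follows, each with the percentage of all genes called in the same setting. For adult over e12.5, 3 were higher in the first list (14.3%), 3 in the second (9.49%), 6 scaled to mRNA reads (14.6%), 2 in exonic clusters (9.98%) and 3 with a pseudocount of 0.1 (11.1%), and 3 were lower in the second list (25.5%), 3 in exonic clusters (27.7%) and 13 with the pseudocount of 0.1 (45.1%). For e18.5 over e12.5, 6 were higher in the first list (19.2%), 7 in exonic clusters (15.2%) and 6 with the pseudocount of 0.1 (14.4%), and 4 were lower in the first list (25.1%), 1 in the second (21.2%), 8 scaled to mRNA reads (28.5%) and 8 with the pseudocount of 0.1 (26.2%). For P7 over e18.5, 12 were higher (22.5%) and 0 lower (2.08%) with the second list, and 7 higher scaled to mRNA reads (18.3%). The cause of these moves was not tested. The other values, 41 of 42 for region shares, 74 of 78 for cluster shares, 26 of 44 for called counts, 15 of 21 for miR-29 and 16 of 21 for let-7, stayed within counting error or 1.5 times. Counts for adult over P7 stayed within 1.5 times in each setting run. The depth of the tables limits single genes, since clusters under 5 reads are not listed.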
